A study of Danio rerio with 19 samples.

Results

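The genes described here are the zebrafish protein-coding genes that span at least 250 kb of genome from their annotated start to their annotated end. Members of 25 gene families named by the start of their symbol, such as protocadherins, glutamate and GABA receptor subunits, voltage-gated channels, collagens and semaphorins, were left out. The rule took 227 of the 23388 protein-coding genes of the count tables, and 263 would have qualified with those families kept. The rule itself reads the annotation and the symbols alone. The genome build of the coordinates is not given in the sources used here.

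The libraries hold messenger RNA of whole zebrafish larvae, whose age is not given in the sources used here. They come from a control medium named ERM (4 libraries), from atorvastatin (AVS) at 1 µg/L (AVS high, 4 libraries) or 100 ng/L (AVS low, 4 libraries), and from afidopyropen (Afid) at 1 µg/L (Afid high, 4 libraries) or 100 ng/L (Afid low, 3 libraries). Atorvastatin inhibits HMG-CoA reductase, the enzyme that controls the rate of cholesterol synthesis, and afidopyropen, an insecticide, disturbs TRPV channels in the sensory neurons of insects. Counts per library were used for 15 libraries, and for Afid high the fold changes and p-values of the authors' deposited table were used. The labels do not say whether libraries of a group are separate tanks, clutches or pools, so p-values reflect only how these libraries vary, and that variation may be technical.

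Most of the length of a long vertebrate gene is intron, which RNA polymerase II has to transcribe before the message is complete and which splicing then removes. In vertebrates, genes of this size are known to be common among those used by neurons: adhesion molecules of axons and synapses, synaptic scaffolds, regulators of dense-core vesicle release and RNA-binding proteins that direct splicing. Because transcription of such a gene takes long, treatments that slow elongation or stop topoisomerases are known to lower long genes more than short ones. In whole larvae, a lower level of a message can come from fewer cells of a type or from less RNA per cell, and these cannot be told apart here.

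The median span of the long genes was 310 kb, with quartiles of 272 and 393 kb and a range of 250.08 to 870.43 kb, where the median of all protein-coding genes was 15.1 kb. Their exons were also longer, with a median summed length of 5.53 kb against 2.27 kb, but they filled a median of 1.61% of the span against 15.5%. The span therefore reflects intron far more than exon. The long genes lay on all 25 chromosomes that carried any, with 5 to 16 on each, and 98 of 227 were on the plus strand. Just under the threshold lay cdh23, a cadherin of hair cell tip links, at 249631 bases and si:dkey-191j3.2 at 249682 bases. Just above it lay si:ch211-232d10.1 at 250078 bases and fam184a at 250629 bases.

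The 8 genes of largest span were sec14l1 (870 kb), macrod2 (855 kb), a CSMD3 gene on chromosome 19 (832 kb), ctnna2 (815 kb), asic2 (802 kb), dusp19b (795 kb), cntnap2a (762 kb) and CR522881.1 (726 kb). Among them macrod2 encodes an enzyme that removes ADP-ribose from proteins, ctnna2 the neuronal alpha-catenin that ties cadherins to actin, asic2 an acid-sensing ion channel and cntnap2a a contactin-associated adhesion protein of axons. Not every large span is a gene with 1 long stretch of intron. The span of dusp19b holds 48 other protein-coding genes of the tables, 27 of them on its own strand, and that of sec14l1 holds 15. Of the 227 long genes, 40 hold at least 1 other protein-coding gene inside their span and 10 hold at least 5, among which are coro7 with 7 and snn with 6. The strand option of the authors' read counting is not given in the sources used here, so reads of a nested gene cannot be assigned with certainty where exons overlap. A second CSMD3 gene with the same symbol lies on chromosome 16 (543 kb), and reads shared by the copies would make both values uncertain.

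Most long genes were detected in the messenger RNA. Of the 227, 224 were listed in every count table, and their median level per exonic length was 3.64 RPKM (reads per kb of exon per M reads) against 3.08 RPKM over 22596 protein-coding genes. A level of at least 1 RPKM was reached by 190 of 224 long genes, or 84.8%, and by 70.8% of all protein-coding genes. The 6 highest levels, as means over the 15 libraries, were those of snd1 at 77.7 ± 16.6 RPKM (SD, n = 15), cadm4 at 42.3 ± 6.60, smap1 at 30.6 ± 4.50, rbfox1 at 28.6 ± 3.66, fstl5 at 23.0 ± 3.31 and dpydb at 22.7 ± 6.29 RPKM. Their products differ in kind. The snd1 protein is a nuclease-domain protein that binds RNA, cadm4 is an adhesion molecule of the immunoglobulin superfamily, smap1 acts on the small GTPase Arf, rbfox1 is a splicing regulator of neurons and muscle, fstl5 is a secreted follistatin-like protein and dpydb degrades pyrimidines.

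By symbol, 175 of the 227 long genes could be put into a role. These roles are coarse and a count by role covers genes of mixed function: the scaffold anks1b, for instance, stands with the cytoskeletal genes and the kinase brsk2b with the synaptic ones. The largest role was cell adhesion and contact with 50 genes and a median level of 5.02 RPKM, led in reads by the receptor phosphatase ptprfb. Transcription and chromatin followed with 22 genes, led by the calmodulin-binding activator camta1b. Membrane traffic and synaptic receptors, channels and scaffolds had 16 genes each, led by the neurobeachin nbeaa and the polarity kinase brsk2b. Ligands and extracellular matrix had 15 genes (led by fstl5), the cytoskeleton 14 (macf1a, which links microtubules to actin), metabolic enzymes 11 (dpydb), kinases and G protein signalling 10 (the phospholipase plch2a), and RNA binding (snd1) and regulators of small GTPases (rapgef2) 8 each. The remaining 5 genes with a role belonged to ubiquitin and proteolysis, led by march8, and to a mixed role of ion channels, pumps, transporters and other receptors. In that mixed role nkain2 had the most reads, and si:ch211-12m10.1 had the most reads of the genes with no role. Of these leading genes, ptprfb stood at 19.998 ± 1.53 RPKM in the control (SD, n = 4), 22.7 ± 4.79 in AVS high (SD, n = 4), 26.0 ± 3.05 in AVS low (SD, n = 4) and 20.02 ± 2.24 in Afid low (SD, n = 3). Of the genes of highest level, rbfox1 stood at 31.4 ± 3.92, 28.6 ± 4.46, 27.2 ± 2.62 and 26.5 ± 2.01 RPKM in the same order.

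In each library, the level of the long genes was taken as the median, over the 219 tested, of the log2 CPM (counts per M reads) less the mean of the control libraries. In control replicates 1 to 4 it was 0.18, 0.02, −0.01 and −0.14. In AVS high replicates 1 to 4 it was −0.13, 0.22, −0.27 and 0.07. In AVS low replicates 1, 2, 4 and 5 it was 0.00, 0.04, 0.09 and 0.14, and in Afid low replicates 1, 2 and 4 it was −0.09, 0.19 and 0.13. The groups overlapped: the highest and the lowest of the 15 values both came from AVS high, and control replicate 1 lay above every AVS low library. In AVS high replicate 3, 53 of the 219 long genes were above the control mean, while in AVS high replicate 2 it was 152. The share of all reads that fell in long genes ran from 0.606% to 1.02%, with a mean of 0.850% ± 0.133 (SD, n = 15).

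**Figure D1:**
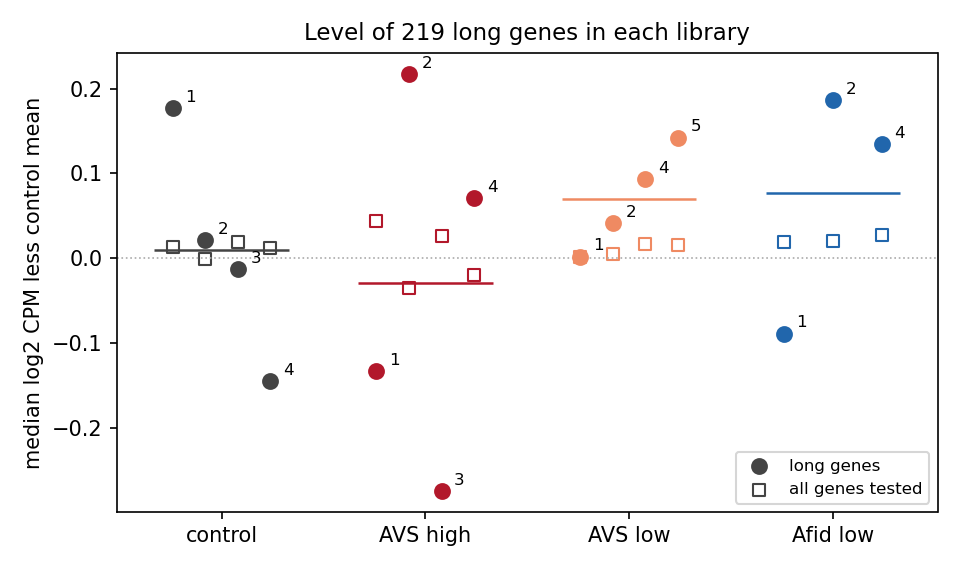
Each filled point is the median, over 219 long genes, of log2 CPM less the control mean in 1 library, with its replicate number, open squares give the same median over all genes tested, and horizontal lines are group means of the long genes. AVS high spans −0.27 to 0.22, which covers the values of all the other libraries.

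The libraries held 8.63 to 18.6 M reads in genes, and within groups all 21 pairs of libraries differed beyond counting noise (chi-square per degree of freedom of at least 7.76). The neuron marker list, of which 27 of 27 genes were tested and 0 were at 0 in any group, summed to 3698 to 5474 CPM in the control, 3479 to 4370 in AVS high, 3193 to 4321 in AVS low and 3825 to 4113 in Afid low. As a median log2 difference from the control mean, it ran from −0.22 to 0.33, −0.33 to 0.03, −0.40 to −0.09 and −0.17 to −0.11 in the same groups. In the skeletal muscle list, of which 19 of 21 genes were tested and 0 were at 0, the sums ran from 57882 to 101170 CPM over the 15 libraries. Control replicate 2 stood apart in the digestive lists. Its exocrine pancreas genes (17 of 18 tested) summed to 2273 CPM, while control replicates 1, 3 and 4 had sums of 8026 to 17678 CPM and exposed libraries of 6047 to 23124 CPM. Its intestine genes (12 of 13 tested) and liver genes (16 of 16 tested), at 666 and 4860 CPM, were also the lowest of the 15 libraries, with 0 genes of these lists at 0 in a whole group. The long genes snd1, dpydb and pcxb, the last a pyruvate carboxylase, were lowest in the same library, at 181, 52.5 and 12.7 CPM as scaled over all 15 libraries. The part of cell composition in the values of the long genes was not tested.

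The study's main comparisons with the control ask which transcripts each exposure changes. In AVS high against the control, 214 long genes were tested and 0 passed an adjusted p of 0.05 by edgeR's quasi-likelihood test or by limma-voom, as for all 18929 genes (0%). DESeq2 called 66 genes (0.349%), of which 1 was a long gene, ntm. The authors' deposited table of this comparison called 61 of 25473 genes (0.239%), with ntm as the only long gene. The authors also name DESeq2 and the libraries are the same, so their call of ntm is not a separate observation. At an unadjusted p under 0.05 there were 20 long genes, or 9.35%, where all genes gave 8.75%. Of these, 18 were lower (8.41%, against 5.39% of all genes) and 2 were higher (0.935%, against 3.37%). Over all 214, 108 were higher (50.5%, against 49.8% of all genes) and 106 lower, with a median log2 fold change of 0.00, as over all genes (−0.00). The groups did not overlap in 2 long genes with higher values, or 0.935% (against 2.25% of all genes), and in 9 with lower values, or 4.21% (against 2.95%). Leaving out AVS high replicate 2 moved the median to −0.13, and leaving out control replicate 1 moved it to 0.05.

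The long gene of smallest p was ntm, which encodes neurotrimin, an adhesion protein of neurons that belongs to the immunoglobulin superfamily and is anchored to the membrane by a lipid (ENSDARG00000018065, chromosome 10, 29963518 to 30589172, plus strand). Its exons sum to 1.52 kb of a span of 626 kb, and 1 other annotated gene but no protein-coding one lies inside it. In AVS high replicates 1 to 4, ntm was at 2.92, 3.59, 4.61 and 2.68 CPM, and in control replicates 1 to 4 at 10.1, 7.22, 7.65 and 8.26 CPM. All AVS high libraries lay below all control libraries. The means were 3.45 ± 0.861 CPM (SD, n = 4) and 8.29 ± 1.25 CPM (SD, n = 4), which gave log2 −1.26 for the fold change (SE 0.27, edgeR unadjusted p = 0.000387, adjusted p = 0.343). By DESeq2 the log2 fold change was −1.26 with an adjusted p of 0.00938, and in the authors' deposited table −1.26 with an adjusted p of 0.0123. That call was lost without AVS high replicate 4 (DESeq2 adjusted p = 0.116), without control replicate 1 (0.190) and without control replicate 3 (0.0507), with log2 fold changes of −1.14, −1.14 and −1.30. Without each other library the adjusted p ran from 0.00657 to 0.0297 by DESeq2.

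Ahead of the remaining adhesion genes was cadm1a, an adhesion molecule of synapses (chromosome 21, 23953181 to 24412427, plus strand). It was at 12.0, 13.5, 15.5 and 12.7 CPM in AVS high replicates 1 to 4 and at 28.2, 18.0, 22.2 and 21.3 CPM in the control. The groups did not overlap, and the log2 fold change was −0.74 (SE 0.19, adjusted p = 0.385, edgeR). Among the secreted proteins, spon1a, which encodes the matrix protein F-spondin of the floor plate (chromosome 18, 28564640 to 28880191, plus strand), was at 5.45, 4.66, 4.12 and 2.17 CPM against 11.4, 8.85, 6.002 and 8.26 CPM. Here too all AVS high libraries lay below all control libraries, at a log2 fold change of −1.08 (SE 0.31, adjusted p = 0.410, edgeR).

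Of the other long genes of smallest p with lower values, dock3, an activator of the small GTPase Rac in neurons, was at 16.6, 31.2, 19.0 and 24.4 CPM against 72.0, 29.9, 35.6 and 36.4 CPM. Its groups overlapped, and control replicate 1 stood far above the other control libraries. Without that library the log2 fold change of dock3 moved from −0.93 to −0.57. The vesicle priming gene cadpsa was at 9.29 to 13.8 CPM against 13.7 to 22.9 CPM, which overlapped, at a log2 fold change of −0.72 (SE 0.22). The further lower genes at an unadjusted p under 0.05 included the neurotrophin receptor ntrk3a (−0.80), the GABA-B receptor subunit gabbr2 (−0.57) and the RNA-binding protein msi2b (−0.56). They also included thsd7ab (−0.81), aff2 (−0.70), snn (−0.70), fhod3b (−0.58) and kaznb (−0.39). None of these passed adjustment by edgeR, and they were picked after their values were seen.

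Among long genes with higher values in AVS high, coro7, a coronin of the Golgi apparatus in mammals (chromosome 3, 11867701 to 12381272, minus strand), was at 5.75, 11.2, 6.30 and 12.2 CPM against 5.29, 4.02, 6.93 and 3.89 CPM. The groups overlapped, since AVS high replicates 1 and 3 lay below control replicate 3, and the log2 fold change was 0.82 (SE 0.31, adjusted p = 0.514, edgeR). Since 7 protein-coding genes lie within the span of coro7, its count may hold reads of other genes. For snd1, values of 319, 323, 425 and 423 CPM stood against 287, 173, 303 and 317 CPM, without overlap, at a log2 fold change of 0.46 (SE 0.21, adjusted p = 0.554, edgeR). The gap between the groups was narrow, control replicate 2 was the lowest library, and without that library the log2 fold change was 0.30. Control replicate 2 also had the lowest digestive markers of the control, whose part in this difference was not tested. The log2 fold changes of ctnna2, of utrn, which encodes the dystrophin relative utrophin, and of the retinal adhesion gene sdk1a were 0.33, 0.32 and 0.47, and their groups overlapped.

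Read by role, 12 of the 15 long genes of ligands and extracellular matrix had lower values in AVS high, with a median log2 fold change of −0.22, and 11 of 16 synaptic genes did, with a median of −0.22. So did 6 of 8 RNA-binding genes, with a median of −0.20. Values were higher for 10 of 14 cytoskeletal genes, with a median of 0.05, and split evenly for adhesion, with 25 higher and 24 lower and a median of 0.01. No gene of these roles passed adjustment by edgeR. In the ligand group, the libraries of AVS high ran from −0.39 to 0.07 and those of the control from −0.32 to 0.39 as a median log2 difference, so that the groups overlapped. They also overlapped for the synaptic genes (−0.46 to 0.17 against −0.16 to 0.30) and the RNA-binding genes (−0.36 to 0.09 against −0.11 to 0.01).

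In AVS low against the control, 217 long genes were tested and 0 passed, as for all 19267 genes (0% by edgeR and by limma-voom), while DESeq2 called 44 genes (0.228%) and 0 long genes. Values were higher for 129 (59.4%, against 49.2% of all genes) and lower for 88, with a median log2 fold change of 0.06 against −0.01 over all genes. At an unadjusted p under 0.05 there were 11 long genes, or 5.07%, where all genes gave 10.1%. Of these, 10 were higher (4.61%, against 5.14% of all genes) and 1 was lower (0.461%, against 4.97%). Groups did not overlap for 4 long genes with higher values, or 1.84% (against 2.12% of all genes), and for 1 with lower values, or 0.461% (against 2.27%). The median ran from 0.02 without control replicate 4 to 0.14 without control replicate 1.

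For coro7, AVS low replicates 1, 2, 4 and 5 stood at 8.26, 8.55, 7.67 and 10.5 CPM, and control replicates 1 to 4, in the scaling of this table, at 5.55, 4.22, 7.28 and 4.09 CPM. The groups did not overlap, and the log2 fold change was 0.73 (SE 0.26, adjusted p = 0.464, edgeR). Here too the count of coro7 may hold reads of the protein-coding genes within its span. Values of utrn were 196, 205, 142 and 178 CPM against 141, 115, 151 and 128 CPM, where AVS low replicate 4 lay among the control libraries, at a log2 fold change of 0.43 (SE 0.16). The junction scaffold magi3a, the phosphatase ptprfb and the Rac activator dock1 had log2 fold changes of 0.51, 0.38 and 0.59, and their groups overlapped.

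Lower values in AVS low were led by luzp2, a leucine zipper protein, at 15.3, 16.6, 29.8 and 21.9 CPM against 28.2, 45.5, 33.5 and 26.3 CPM, a log2 fold change of −0.68 (SE 0.24, adjusted p = 0.464, edgeR). Its groups overlapped through AVS low replicate 4. The Arf activator iqsec3a, the neurotrophin receptor ntrk3a, the immunoglobulin gene igsf21a and ca10a, a relative of the carbonic anhydrases without their activity, had log2 fold changes of −0.51, −0.50, −0.31 and −0.46. Their groups overlapped, and their unadjusted p-values were 0.0620, 0.0830, 0.0930 and 0.1000, none of them under 0.05. By role, 11 of 14 cytoskeletal genes (median 0.13) and 10 of 15 ligand and matrix genes (median 0.11) had higher values, and 10 of 16 synaptic genes had lower ones (median −0.09). Over all long genes, 59.4% had higher values. As a median log2 difference, the AVS low libraries of these roles ran from 0.10 to 0.35, −0.05 to 0.34 and −0.26 to 0.24. The control libraries ran from −0.19 to 0.29, −0.32 to 0.39 and −0.16 to 0.30, so that all overlapped.

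In Afid low against the control, 219 long genes were tested and 0 passed, as for all 19399 genes (0% by edgeR and by limma-voom), and DESeq2 called 16 genes (0.0825%) and 0 long genes. Values were higher for 135 (61.6%, against 50.8% of all genes) and lower for 84, with a median log2 fold change of 0.09 against 0.01 over all genes. An unadjusted p under 0.05 was reached by 9 long genes, or 4.11%, where all genes gave 7.05%, and 8 of them were higher (3.65%, against 3.59%) and 1 lower (0.457%, against 3.46%). Groups did not overlap in 14 long genes with higher values, or 6.39% (against 4.56% of all genes), and in 4 with lower values, or 1.83% (against 4.29%). Without Afid low replicate 2 the median was 0.01, and without Afid low replicate 1 it was 0.15.

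The 5 long genes of smallest p with higher values in Afid low were gpc6a, fam172a, crim1, adamtsl3 and dnah2. In all 5 the groups did not overlap, which the choice by small p favours. The glypican gpc6a, a heparan sulfate carrier of the cell surface, was at 6.64, 7.79 and 8.37 CPM in Afid low replicates 1, 2 and 4 and at 6.18, 4.16, 3.96 and 3.77 CPM in the control, a log2 fold change of 0.75 (SE 0.27). Values of fam172a were 25.8, 30.1 and 26.1 CPM against 21.5, 21.4, 20.7 and 18.3 CPM (log2 fold change 0.42, SE 0.16). The BMP-binding membrane protein crim1 was at 50.8, 51.5 and 53.2 CPM against 49.1, 21.4, 35.5 and 32.6 CPM (log2 fold change 0.58, SE 0.23). Control replicate 1 came close to the lowest Afid low library for crim1, and without control replicate 2 its log2 fold change was 0.41. The adjusted p was 0.688 for each of these genes by edgeR.

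Further genes with higher values were adamtsl3, a secreted ADAMTS-like matrix protein, at 10.1, 11.1 and 10.3 CPM against 7.95, 2.14, 6.63 and 5.78 CPM (log2 fold change 0.90, SE 0.35, and 0.63 without control replicate 2), and dnah2, a dynein heavy chain of motile cilia, at 1.58, 2.86 and 1.91 CPM against 1.14, 0.938, 0.762 and 0.130 CPM (log2 fold change 1.51, SE 0.59). The values of dnah2 rest on few reads, a mean of 26 in Afid low and 11 in the control, and it met the minimum of 20 reads for naming only through the group where it is high. Lower values were found for nrg3b, a neuregulin that binds ErbB receptors, at 19.3, 25.4 and 23.1 CPM against 29.9, 44.5, 33.3 and 24.03 CPM. Its groups overlapped through control replicate 4, at a log2 fold change of −0.54 (SE 0.21, adjusted p = 0.688, edgeR). The neurotrophin receptor ntrk3b (−0.31), the GalNAc transferase gene GALNTL6 (−0.34), the adhesion gene kirrel3a (−0.41) and the vesicle priming gene cadps2 (−0.36) had unadjusted p-values above 0.05, and of these 4 the groups did not overlap for cadps2.

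By role, 12 of 14 cytoskeletal genes had higher values in Afid low (median log2 fold change 0.20), 10 of 15 ligand and matrix genes did (0.17), and 7 of 10 kinase and G protein genes had lower ones (−0.13). Of the 16 synaptic genes, 9 had higher values and 7 lower ones (0.11). Over all long genes, 61.6% had higher values. As a median log2 difference, the cytoskeletal genes were at −0.04, 0.35 and 0.37 in Afid low and at −0.19 to 0.29 in the control. The kinase and G protein genes were at −0.41, 0.06 and 0.02 against −0.27 to 0.16, so both roles overlapped with the control. Genes of a role are not independent replicates. The comparisons with the control share the same 4 control libraries, so values that move alike in several of them are not separate observations.

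**Figure D2:**
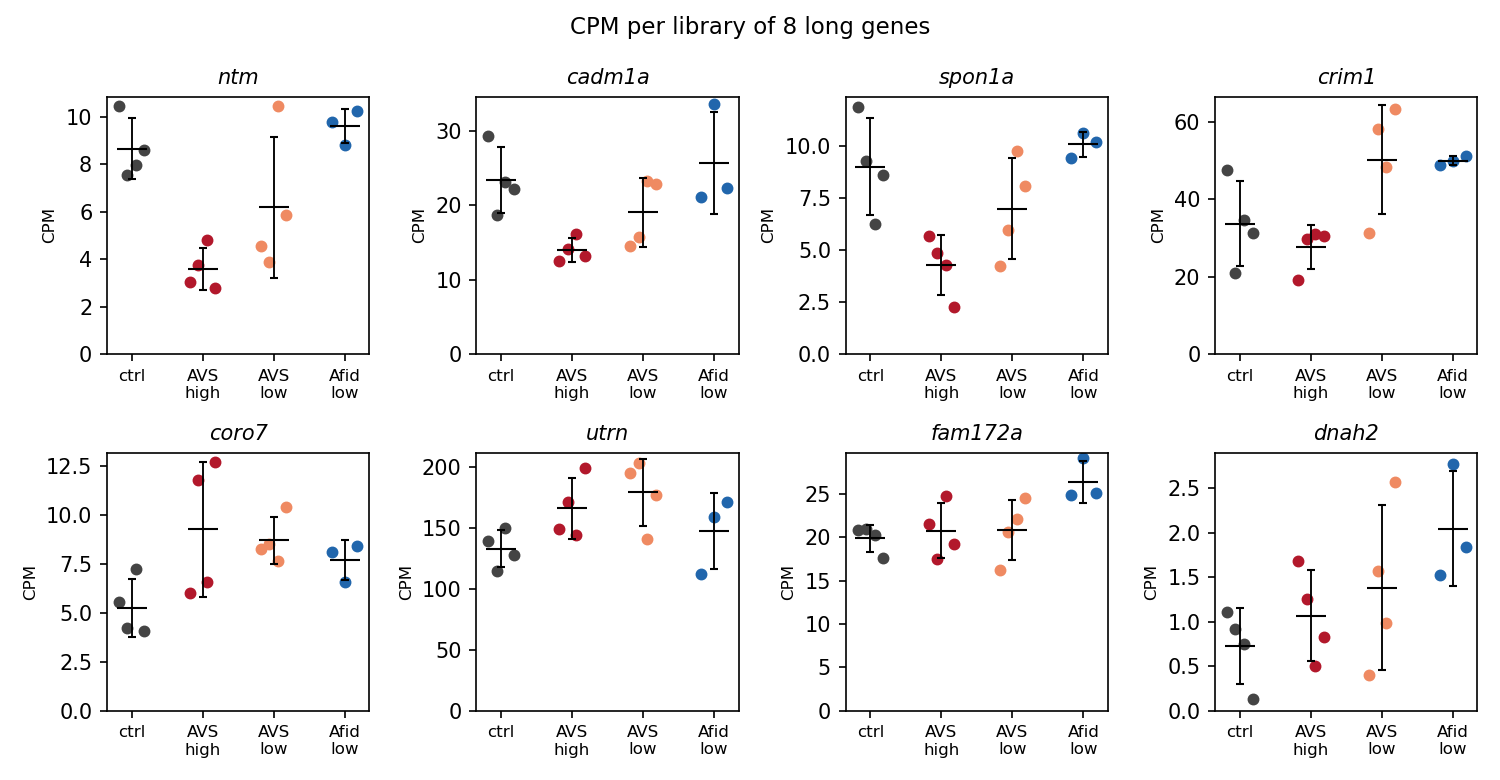
Points are the CPM of 1 gene in 1 library, scaled over all 15 libraries together, with the group mean and SD as bars (n = 4, and n = 3 for Afid low). The 4 AVS high libraries of ntm lie between 2.79 and 4.80 CPM, below the 4 control libraries, while those of AVS low run from 3.88 to 10.5 CPM and overlap both.

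For Afid high the authors' deposited table gave a fold change for 212 long genes, matched by symbol. Of these, 139 were higher (65.6%, against 51.1% of 19586 genes) and 73 lower. The median log2 fold change was 0.06 against 0.01 over the 19586 genes. In the authors' deposited table, 8 long genes had a p-value under 0.05, or 3.77%, where all genes gave 8.24%. All 8 were higher (against 3.55% of all genes in the authors' deposited table) and 0 lower (against 4.69%). Among the long genes, the smallest p-value of the authors' deposited table belonged to rptor, the mTORC1 subunit raptor, at a log2 fold change of 1.52 (p = 0.00351), followed by gabbr2 (0.39) and the choline transporter relative slc44a5a (0.72). In the control libraries rptor was at 0.61, 0.20, 1.12 and 1.56 CPM, scaled over all 15 libraries, so its fold change rests on few control reads. For the 5 genes named above with higher values in Afid low, the authors' deposited table gave 0.60 for gpc6a (p = 0.0297), 0.46 for crim1 (p = 0.0463), 1.13 for dnah2 (p = 0.0545), 0.54 for adamtsl3 (p = 0.112) and 0.24 for fam172a (p = 0.166). For the 5 with lower values the authors' deposited table gave −0.35 for nrg3b, −0.34 for kirrel3a, −0.18 for GALNTL6 and −0.16 each for ntrk3b and cadps2, with unadjusted p-values above 0.05. Both comparisons share the control libraries. Of the 212 long genes, 170, among them all 8 with a p-value under 0.05, carry an adjusted p of 1 that was read as missing, so the authors' deposited table does not show whether these pass. None of the other 42 had an adjusted p under 0.05 in the authors' deposited table, where 8 of the 19586 genes did (0.0408%). The 19586 include genes whose adjusted p was read as missing, so this share and the count over 42 have unlike bases. No values per library were used for this group.

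The atorvastatin doses were compared with each other in 1 fit of the 15 libraries, without use of the control in the contrast. Of 219 long genes tested, 0 passed, as for all 20144 genes (0% by edgeR and by limma-voom), and DESeq2 called 6 genes (0.0298%) and 0 long genes. Values in AVS high were lower than in AVS low for 140 (63.9%, against 48.9% of all genes) and higher for 79. The median log2 fold change was −0.08 against 0.01 over all genes. An unadjusted p under 0.05 was reached by 18 long genes, or 8.22%, where all genes gave 5.44%. All 18 were lower (against 4.05% of all genes) and 0 were higher (against 1.39%). Groups did not overlap in 3 long genes with lower values (1.37%, against 1.05% of all genes) and in 0 with higher values (against 0.973%). The median moved from −0.18 without AVS high replicate 2 to −0.01 without AVS high replicate 1.

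In this contrast crim1 had the smallest p of the long genes, at 19.1, 29.9, 31.1 and 30.4 CPM in AVS high and 31.3, 58.0, 48.3 and 63.3 CPM in AVS low replicates 1, 2, 4 and 5. The groups did not overlap, although AVS low replicate 1 lay next to the AVS high libraries, and the log2 fold change was −0.86 (SE 0.24, adjusted p = 0.893, edgeR). The membrane protein gene snn was at 6.10, 4.0, 5.14 and 6.27 CPM against 6.70, 9.13, 11.2 and 9.76 CPM, without overlap (log2 fold change −0.77, SE 0.22). Since 6 protein-coding genes lie within the span of snn, its count may hold reads of other genes.

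Overlapping groups were found for thsd7ab, a protein with thrombospondin domains (−0.96), adarb1b, which edits adenosine in RNA (−1.06), and slc44a5a (−1.34, with a mean of 12.8 reads in AVS high and 42.5 in AVS low), each with an adjusted p of 0.893 by edgeR. In all of these the AVS low replicate of lowest value was replicate 1. The values of slc44a5a rest on few reads, and it met the minimum of reads for naming only through AVS low, where it is high. Higher values in AVS high were led by cadps2 (0.34), march8 (0.25), the GDNF receptor family gene gfra4a (0.39), iqsec3a (0.36) and the RNA-binding protein msi2a (0.37), with unadjusted p-values from 0.0847 to 0.2001 and overlapping groups.

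The low doses of the compounds, both 100 ng/L, were compared in the same fit. Of 219 long genes 0 passed, as for all 20144 genes (0% by edgeR, by DESeq2 and by limma-voom). Values were higher in AVS low for 116 (53.0%, against 53.3% of all genes) and lower for 103. The median log2 fold change was 0.02 against 0.03 over all genes. An unadjusted p under 0.05 was reached by 7 long genes (3.20%), where all genes gave 6.73%, with 2 higher (0.913%, against 3.12%) and 5 lower (2.28%, against 3.61%). Groups did not overlap in 7 long genes with higher values (3.20%, against 3.77% of all genes) and in 6 with lower values (2.74%, against 3.67%). For cadpsa, AVS low stood at 6.23, 8.01, 21.3 and 15.4 CPM and Afid low at 24.5, 21.4 and 23.7 CPM. The groups did not overlap, but AVS low replicate 4 reached almost to the lowest Afid low library, and the log2 fold change was −0.87 (SE 0.31, adjusted p = 0.693, edgeR).

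Other long genes of small p in this contrast included kaznb, which encodes a kazrin, at 19.8, 25.02, 27.3 and 28.7 CPM against 30.1, 35.3 and 32.3 CPM without overlap (log2 fold change −0.37). The log2 fold changes of atrnl1a, ntm and msi2b were −0.85, −0.64 and −0.48. With higher values in AVS low, TMEM8B was at 0.71 and dpydb at 0.51, both without overlap, and ptprfb at 0.38, megf11, a mosaic-forming receptor of retinal neurons in mouse, at 0.42 and ctnna2 at 0.35 with overlap. Over all 4 groups with counts, 21 of 219 long genes had an unadjusted p under 0.05 (9.59%, against 9.83% of all genes). None passed by edgeR or limma-voom (0% of all genes), while DESeq2 called 77 genes (0.382%) with ntm as the 1 long gene.

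**Figure D3:**
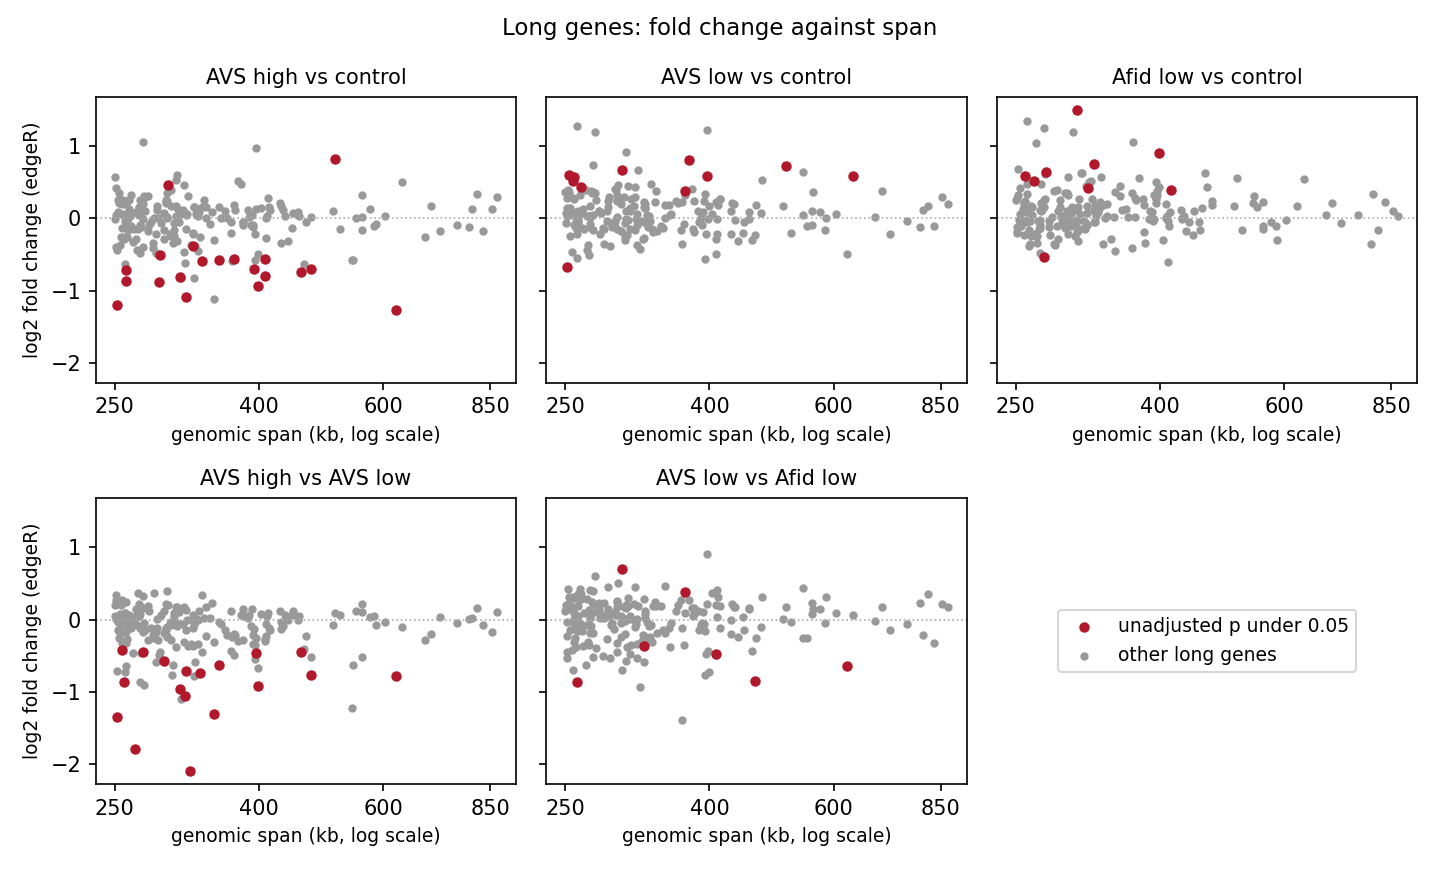
Each point is 1 long gene in 1 comparison with counts, at its genomic span (log scale, kb) and its log2 fold change by edgeR, with genes at an unadjusted p under 0.05 in red. In AVS high against AVS low all 18 red points lie below 0, and in AVS high against the control 18 of 20 do.

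Whether span goes with fold change was described over all protein-coding genes tested, without a p, since genes are not independent replicates. The Spearman rank correlation of span with log2 fold change was 0.01 in AVS high against the control (n = 18392 genes), 0.19 in AVS low (n = 18695), 0.21 in Afid low (n = 18796) and, from the authors' deposited table, 0.19 in Afid high (n = 18933). It was −0.22 in AVS high against AVS low and −0.01 in AVS low against Afid low (n = 19447 each). The first 4 values share the control libraries. Single libraries moved these values: the correlation was 0.11 in AVS low without control replicate 4, 0.12 in Afid low without Afid low replicate 2, and −0.14 and −0.11 between the atorvastatin doses without AVS high replicates 1 and 3.

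Among the longer genes taken alone, span and fold change were only weakly correlated. Among the protein-coding genes of at least 50 kb the correlation was −0.08 in AVS high, −0.03 in AVS low and 0.02 in Afid low against the control, and −0.04 between the atorvastatin doses. Within the long genes themselves the correlations were −0.04, −0.03, 0.05 and −0.06, with 214, 217, 219 and 219 genes. Below 50 kb the correlations were 0.07, 0.19, 0.19 and −0.15. The long genes cover a narrow range of span, so their correlations cannot show whether the relation stops among them. In AVS low the median log2 fold change was −0.11 for genes under 10 kb, 0.02 at 10 to 50 kb, 0.08 at 50 to 100 kb, 0.05 at 100 to 250 kb and 0.06 at 250 kb and over. Afid low gave −0.10, 0.01, 0.09, 0.10 and 0.08 in the same order, and AVS high against the control gave −0.04, 0.03, 0.01, −0.05 and −0.02, lowest at 100 to 250 kb. AVS high against AVS low gave 0.08, 0.01, −0.09, −0.12 and −0.08, a step down in each class as far as 100 to 250 kb. The median at 250 kb and over was thus above that of genes under 10 kb in AVS low and Afid low. Between the atorvastatin doses it was below.

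**Figure D4:**
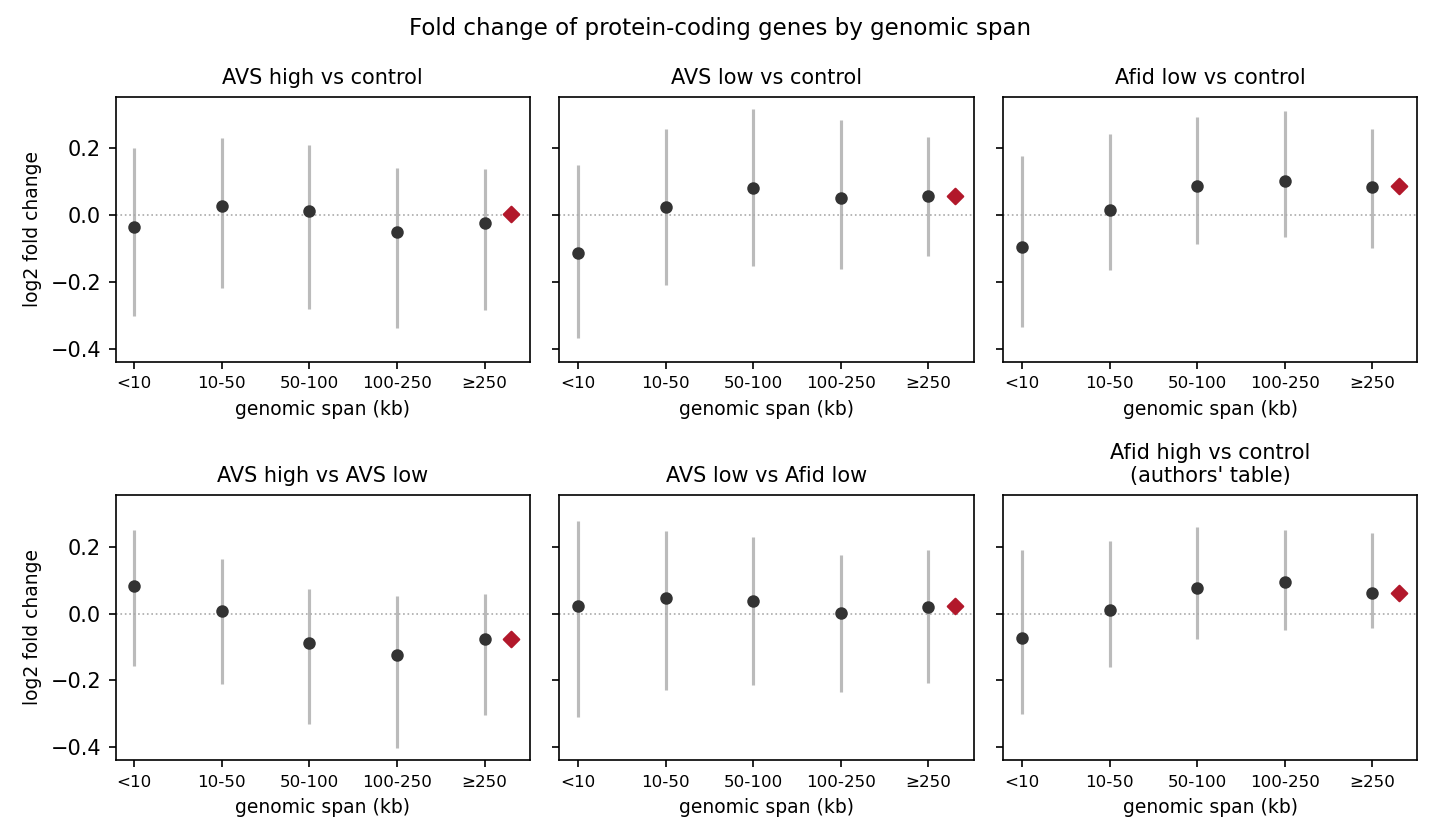
Points are median log2 fold changes of protein-coding genes in 5 classes of genomic span, vertical lines run from the lower to the upper quartile over genes, and red diamonds are the long genes with the families left out. In AVS low and Afid low the class under 10 kb lies lowest, at −0.11 and −0.10, and the 3 classes from 50 kb upward lie close together.

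Exonic length itself had a rank correlation with log2 fold change of 0.09 in AVS high, 0.17 in AVS low and 0.16 in Afid low against the control. From the authors' deposited table it was 0.16 in Afid high. Between the atorvastatin doses it was −0.12 and between the low doses 0.03. The correlation of span with fold change was also taken within 4 bins of exonic length and 4 of mean reads, with nearly equal numbers of genes. The bins are wide, the uppermost running from 4095 to 98586 exonic bases in AVS low, so neither measure was held constant. Within bins of exonic length the correlation ran from −0.07 to −0.00 in AVS high, 0.10 to 0.13 in AVS low, 0.13 to 0.17 in Afid low, −0.21 to −0.13 between the atorvastatin doses and −0.07 to 0.03 between the low doses. Within bins of mean reads it ran from −0.06 to 0.01, 0.15 to 0.24, 0.16 to 0.37, −0.38 to −0.14 and −0.11 to 0.00 in the same order. Given exonic length and mean reads together, the partial rank correlation was −0.05 in AVS high, 0.11 in AVS low, 0.16 in Afid low and −0.19 between the atorvastatin doses.

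The same correlation, taken in each library between span and the deviation from the control mean, differed as much within groups as between them. In control replicates 1 to 4 it was 0.17, −0.16, −0.08 and −0.23, and in AVS high replicates 1 to 4 it was −0.24, 0.07, −0.25 and 0.08. In AVS low it was −0.08, 0.12, 0.04 and 0.25 and in Afid low −0.13, 0.23 and 0.18. Group means were −0.07 ± 0.18 in the control, −0.08 ± 0.18 in AVS high, 0.08 ± 0.14 in AVS low (each SD, n = 4) and 0.09 ± 0.20 in Afid low (SD, n = 3), and all groups overlapped.

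Beside these values, ribosomal protein genes, which are short, took 6.64%, 8.89%, 7.41% and 10.9% of reads in control replicates 1 to 4 and 7.05%, 7.79%, 9.24% and 6.26% in AVS high replicates 1 to 4. They took 7.59%, 6.98%, 7.64% and 4.87% in AVS low and 7.75%, 5.95% and 5.48% in Afid low. The libraries of largest ribosomal share, control replicate 4 and AVS high replicate 3, had a negative correlation and the lowest levels of the long genes, and the library of smallest share, AVS low replicate 5, had the highest correlation. AVS high replicate 1, with a share of 7.05%, had a correlation of −0.24 all the same. The ribosomal list, of which 75 of 78 genes were tested and 1 was at 0 in all libraries, summed to 61132 to 126730 CPM in the control, 68060 to 105750 in AVS high, 42834 to 85885 in AVS low and 47659 to 75397 in Afid low. Its part in the correlation was not tested.

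**Figure D5:**
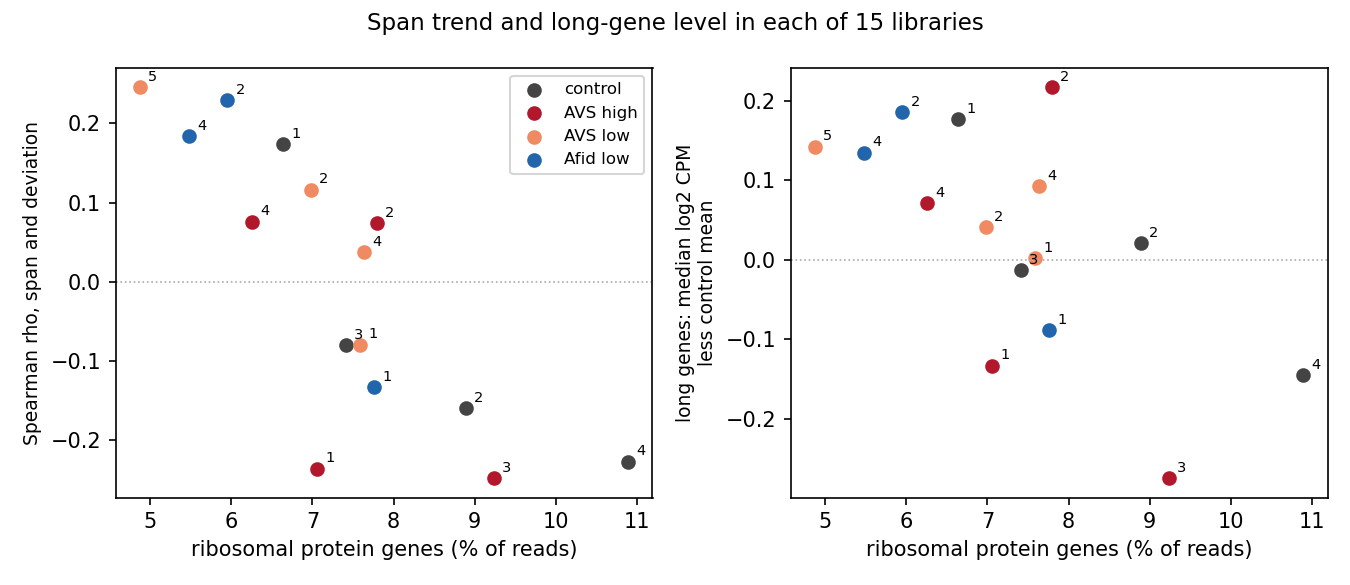
Each point is 1 of 15 libraries, with its replicate number, at the percent of its reads in ribosomal protein genes. The left panel gives the Spearman correlation of span with deviation from the control mean over protein-coding genes, and the right panel the level of the long genes, with AVS low replicate 5 at 4.87% and 0.25 and control replicate 4 at 10.9% and −0.23 in the left panel.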

How the data were processed

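Read counts per gene of 15 whole-larva libraries were taken from 3 tables deposited by the authors, each with 1 exposed group beside the same 4 control libraries. Control counts were identical in these tables (0 genes differed). The tools named in the submitters' processing notes are featureCounts, HISAT2, fastp and DESeq2, with versions and settings not given in the sources used here. The authors' log2 fold changes, p-values and adjusted p-values stand in the same tables, per the file headers, and were used for Afid high alone and for the authors' calls. Many genes of small p carry an adjusted p of 1 in the Afid high table, which was taken as a missing value. The 46 further columns of values per library were not used.

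Comparisons with the control used the libraries of 1 table each, in edgeR 4.0.16 in R 4.3.3 (quasi-likelihood test, TMM scaling, filterByExpr), and p-values were adjusted by Benjamini-Hochberg over all genes tested, at a threshold of 0.05. The other contrasts came from 1 fit of 15 libraries over 24886 genes listed in every table. As alternatives, limma-voom (limma 3.58.1) and DESeq2 1.42.0 were run. The SE of a log2 fold change is its size divided by the square root of the F statistic. CPM are TMM-scaled, with a prior count of 2 where logged, and RPKM divide them by the exonic length of the tables. The edgeR fits were tested on simulated data, with changes made in genes of at least 50 reads on average. Log2 changes of 1 were recovered in 41% to 52% of cases and log2 changes of 2 in 97% to 100%. Per comparison, 9 to 14 of 148 to 161 calls were false.

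The members, their roles (by symbol, 53 symbols by hand) and the marker lists were chosen with earlier results of these data known. Named are the 5 members of smallest p in each direction and comparison with 20 reads or more on average in 1 group, the 8 of largest span, the 6 of highest RPKM, the 2 genes on each side of the threshold and the member with most reads in each role. Genes named beyond these, such as ntrk3a in AVS high, were chosen after their values were seen. No sequences were used.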

Additional observations from a re-analysis of the deposited data

Results flagged for a closer look

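In groups of 4 libraries, the values of the named long genes were searched for a single library that stands apart from the other 3 (gap over range, Dixon's 95% value). Of 189 such searches 8 found one, where chance gives about 1 in 20. CPM here are scaled over all 15 libraries.

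Control replicate 2 stood apart for the vesicle priming gene cadps2 at 29.5 CPM (19.3 to 20.8 in the other control libraries) and for the adhesion gene cadm4 at 144 CPM (108 to 112). Control replicate 1 did so for the Rac activator dock3 at 74.98 CPM (31.2 to 38.0) and for the scaffold magi3a at 35.4 CPM (29.8 to 30.0). AVS high replicate 1 did so for crim1 at 19.1 CPM (29.9 to 31.1) and for ntrk3a at 34.2 CPM (19.1 to 19.9). AVS high replicate 3 was the only library of its group in which CR522881.1 had reads, at 0.253 CPM (0 in the others). With 0 in the others any read would have been flagged, and the gene had a mean of only 3.73 reads over all 15 libraries. AVS low replicate 4 was low for macf1a at 279 CPM (327 to 337).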

How the results depend on the processing

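DESeq2 called 66 genes in AVS high, 44 in AVS low, 16 in Afid low, 6 between the atorvastatin doses and 77 over the 4 groups, where edgeR called 0, and 1 long gene, ntm, in the first and the last of these. The cause of the difference between the tools was not tested. With all genes of low count kept, edgeR called 2 in AVS high, and without control replicate 4 it called 1 in Afid low, none of them a long gene. Leaving out 1 library in DESeq2, an alternative chosen after seeing the data, gave 0 to 4 long genes in AVS high: aff2, ntm, ntrk3a and spon1a without AVS high replicate 1, and cadm1a and ntm without control replicate 2. The 66 calls over all genes became 307 and 89 in these 2 settings, 97, 57 and 3 without AVS high replicates 2, 3 and 4, and 5, 31 and 84 without control replicates 1, 3 and 4. Over single left-out libraries, the median of the long genes ran from −0.13 to 0.05 in AVS high, 0.02 to 0.14 in AVS low, 0.01 to 0.15 in Afid low, −0.18 to −0.01 between the atorvastatin doses and −0.09 to 0.09 between the low doses. The correlation of span with fold change ran from −0.05 to 0.10, 0.11 to 0.25, 0.12 to 0.30, −0.28 to −0.11 and −0.12 to 0.06 in the same order. With 100 or 500 kb as the threshold the medians were −0.03 and 0.01 in AVS high, 0.06 and 0.06 in AVS low, 0.09 and 0.05 in Afid low and −0.11 and −0.03 between the atorvastatin doses. Under a mean of at least 50 reads the median between the low doses was −0.03, against 0.02.

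Replicate numbers were not taken to pair the libraries. The correlation of deviations of same-numbered libraries ran from −0.26 to 0.13, and so few libraries cannot exclude a shared clutch or batch. With a replicate block, the medians were −0.02, 0.02, 0.06, −0.00 and −0.04 and the correlations of span with fold change 0.01, 0.12, 0.20, −0.05 and −0.07 in the order above, with 0 genes called. The block kept only libraries whose number occurs in each group of the fit. Control replicate 3 was left out of all but the first comparison, and AVS low replicate 5 wherever AVS low was compared. AVS high replicate 3 was left out between the atorvastatin doses and between the low doses. Without a block, leaving out AVS high replicate 3 or AVS low replicate 5 alone gave correlations of −0.11 and −0.15 between the atorvastatin doses.

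At 3 or 4 libraries a group, the spread between libraries was 0.15 in the level of the long genes (pooled SD of log2 values). By group this SD ran from 0.06 in AVS low to 0.22 in AVS high. The median log2 fold changes of the main fits, −0.08 to 0.09, were smaller than the pooled SD. What size of difference could be detected was not tested.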
